A study of Homo sapiens with 8 samples.

Results

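The transcriptome described here is that of U87 cells given only the solvent DMSO, taken from the DMSO-1 and DMSO-2 columns of the deposited count table, which are 2 of the 8 libraries of the series. U87 is an established human glioblastoma line. The other 6 libraries, from cells given AsiDNA, belinostat or both, were not used. The cells were grown in DMEM with 10% serum and 1% penicillin-streptomycin, and the libraries were made from total RNA with a stranded kit after removal of ribosomal RNA. The sources name the cells as MTU87 and LTAU87 without tying the DMSO libraries to either name, and they give neither dose nor duration of DMSO. Nothing states whether replicates 1 and 2 came from separate cultures, so the spread between them may be technical. They held 9699637 and 9220207 counts, at which 3 counts equal 0.309 and 0.325 CPM, read counts scaled to the size of the library.

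Glioblastoma is the most aggressive of the common tumours of the glial lineage. Its cells are often sorted by expression into proneural, classical and mesenchymal classes, and the tumours commonly lose the cell cycle inhibitors of 9p21 or gain growth factor receptors. U87 is known to lack CDKN2A, a fact about its DNA that RNA counts do not measure. Levels are given here as CPM, which follow the number of reads, and as TPM, which also divide by the exonic length of the gene. That length joins the exons of all annotated transcripts, so TPM run low where no single transcript holds them all. Comparisons between genes by TPM therefore also depend on the annotation.

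The table listed 58884 genes, of which 33582 had no count in either library and 13080 reached 1 CPM in both. Of 19945 protein-coding genes, 11361 (57%) reached 1 CPM in both libraries and 5187 (26%) had 0 counts in both. A gene with 0 counts may still be transcribed at up to the level of 3 counts, 0.159 CPM over the 2 libraries together, and this limit covers counting error only. The lower level of the 2 libraries was just at 1 CPM for KRBA2 and FER1L6 and just below it for CMKLR2 and LYPD1. The 20 most abundant genes held 9.73% and 10.7% of the counts of replicates 1 and 2, and 917 and 991 genes were needed to reach 50%. Levels of 1000 CPM or more in both libraries were found for 72 genes.

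Matrix proteins, glycolytic enzymes, the cytoskeleton and nuclear noncoding RNAs made up most of the 20 highest genes by reads. FN1, the matrix protein fibronectin, was the highest gene by mean CPM, with 14322 CPM in replicate 1 and 14488 in replicate 2. MALAT1 and NEAT1, long noncoding RNAs that stay in the nucleus, came next by mean CPM. Their levels differed between the libraries, with 5504 and 13772 CPM for MALAT1 and 3609 and 14376 for NEAT1, so that in replicate 1 both lay below TGFBI. TGFBI, a matrix protein induced by TGF-beta, stood at 9133 and 8839 CPM. COL6A3, a chain of collagen VI, stood at 5361 and 5413 CPM. FN1, TGFBI and COL6A3 differed little between the libraries. Also among the 20 highest genes were the glycolytic enzymes GAPDH, ENO1, PKM, LDHA and PGK1, the cytoskeletal genes VIM, ACTB, ACTG1, FLNA and AHNAK, the angiogenic factor VEGFA, the matrix protein TNC and the endoplasmic reticulum proteins CALU and HSP90B1. Of these 20 genes, 13 lay within 1.5-fold between the libraries.

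Dividing by length kept 10 of those 20 genes among the 20 highest. TMSB10, which binds monomeric actin, then led with 11363 and 11892 TPM. The signal recognition particle RNA RN7SL1 had 12928 and 8338 TPM. Reads of this gene and of RN7SL2 are hard to assign because near-identical copies exist. In GENCODE v29, 100% of the exonic bases of RN7SL1 and 0% of those of RN7SL2 lie in exons of another gene on the same strand. MT-CO3, MT-CO1 and MT-CO2, subunits of cytochrome c oxidase encoded in mitochondria, followed, with 10075 and 8848 TPM for MT-CO3. S100A6, TFPI2, RPS12 and SNORA73B came in as well, the last of these being a small nucleolar RNA whose host transcript SNHG3 had 270 and 412 TPM. Long genes such as COL6A3, FLNA, AHNAK and TNC left the 20 highest.

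**Figure D1:**
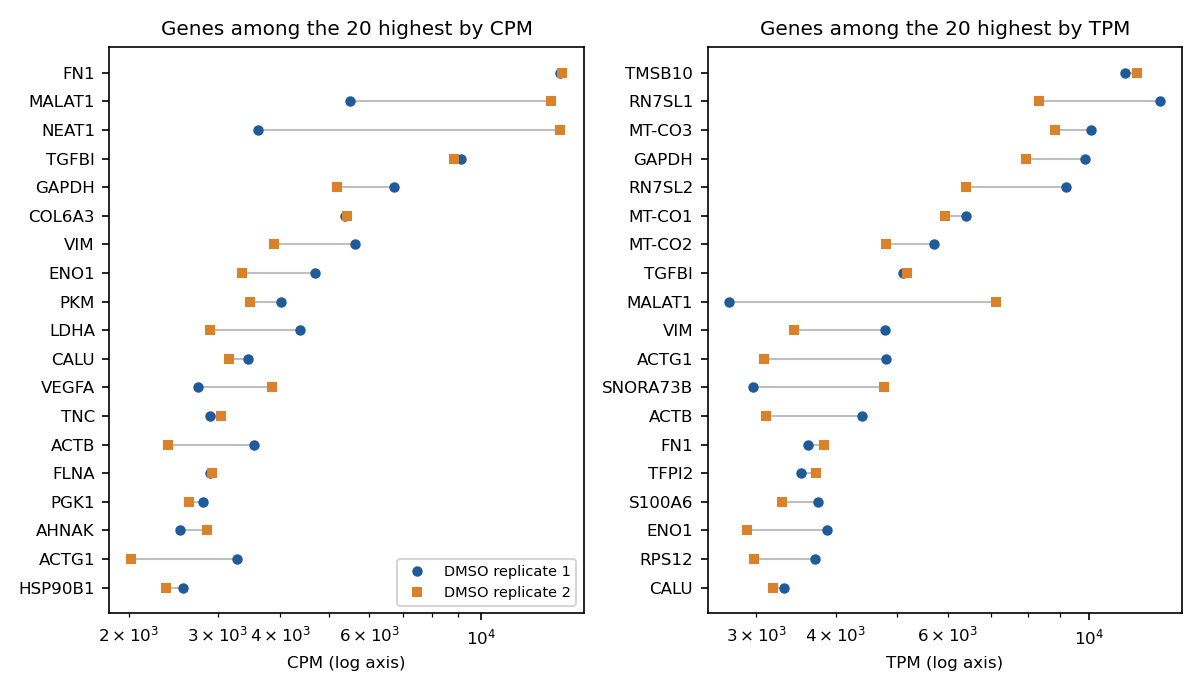
Genes among the 20 highest by mean CPM (left) and TPM (right), 19 on each side, on log axes, with circles for DMSO replicate 1 and squares for replicate 2. FN1 and TGFBI nearly coincide between the libraries, while MALAT1 and NEAT1 stand far apart.

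Several defining markers of glia were at or near 0, other glial markers were present, and markers of connective tissue were abundant. Of 18 astrocyte markers 6 reached 1 CPM in both libraries, a smaller share than the 57% of all protein-coding genes. GFAP, the intermediate filament that defines astrocytes, had 3 counts in replicate 1 and 5 in replicate 2. The water channel AQP4 and the calcium binder S100B had 0 counts in both. The 6 were the gap junction gene GJA1, CLU, the glutamate transporter SLC1A3, GLUL, ALDOC and SOX9. GJA1 was the highest of them, with 3151 and 2658 counts and a mean of 401 TPM, and SLC1A3 had 523 and 482 counts. The oligodendrocyte list had 6 of 16 at 1 CPM, led by the proteoglycan CSPG4 with 1414 and 1229 counts, while the lineage factor SOX10 and the myelin genes MOG, MAG and MOBP had none. OLIG2, a factor of the oligodendrocyte lineage, had 6 and 12 counts.

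Of 24 neuronal markers 8 reached 1 CPM. UCHL1, a neuronal deubiquitinase, had 3283 and 3049 counts, and ENO2, the neuronal enolase, 3594 and 4029. SNAP25, a protein of synaptic vesicle fusion, had 355 and 565 counts and GAD1, which makes the transmitter GABA, 132 and 242. Not all of the 8 are named here, and 5 members of the list had a mean of at least 10 CPM. Of the 24 markers 16 had 3 counts or fewer in all, with 0 and 1 counts for RBFOX3 and none for NEFL, NEFM, NEFH, STMN2 or INA. The neural stem cell list had 11 of 20 at 1 CPM. VIM held most of its reads, but 9 of the 20 had a mean of at least 10 CPM. The receptor NOTCH1 had 999 and 1119 counts, and PAX6 was also at 1 CPM. NES, the neural progenitor filament nestin, had 49 and 59 counts and the stem cell factor SOX2 had none.

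The fibroblast and mesenchymal list stood highest of the lineage lists, with 20 of 23 members at 1 CPM and a median of 82.8 TPM, against 5.63 TPM over all protein-coding genes. Its most abundant members were VIM, FN1 and the 3 collagen VI chains COL6A2, COL6A1 and COL6A3, followed by the nucleotidase NT5E, the matrix protein SPARC and the hyaluronan receptor CD44. COL1A2 had 14610 and 14132 counts, against 2353 and 2673 for COL1A1, its partner in collagen I, and 40 and 36 for COL3A1. The matrix protein POSTN and the factor TWIST2 had 0 counts, and the surface protein THY1 had 1 count in all. Of 13 mural cell markers 9 reached 1 CPM, with 1727 and 1738 counts for the receptor NOTCH3 and 1116 and 1367 for PDGFRB, while MYH11, KCNJ8 and DES had none.

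Markers of blood cells and endothelium, which surround a tumour in tissue, were at 0 for many members and present for some. The pan-leukocyte gene PTPRC and the microglial genes AIF1, P2RY12, CX3CR1 and TYROBP had 0 counts in both libraries. Of 18 microglia and macrophage markers 4 reached 1 CPM: CD74, TMEM119, CSF1R and CD68, with 664 and 505 counts for CD74. IL7R, with 98 and 66 counts, was the single gene of the 12 lymphoid markers at 1 CPM. Of 13 endothelial markers 4 reached 1 CPM: ENG, PECAM1, KDR and TEK. ENG, a coreceptor of the TGF-beta family, was the highest with 162 and 145 counts, while the endothelial cadherin CDH5 had none and VWF, the von Willebrand factor, 1 and 2. No gene of the epithelial, the hepatocyte and erythroid, or the germline and pluripotent list reached 1 CPM in both libraries, out of 14, 12 and 15. At a limit of 0.5 CPM the numbers were 2, 1 and 3, and without replicate 1 they were 1, 1 and 1. The skeletal muscle list had 3 of 12, with TNNT1, a slow muscle troponin, at 422 and 399 counts and 0 counts for MYOD1 and MYOG. MITF, the pigment cell factor, had 153 and 146 counts, while its lineage partners MLANA, TYR and SOX10 had none.

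**Figure D2:**
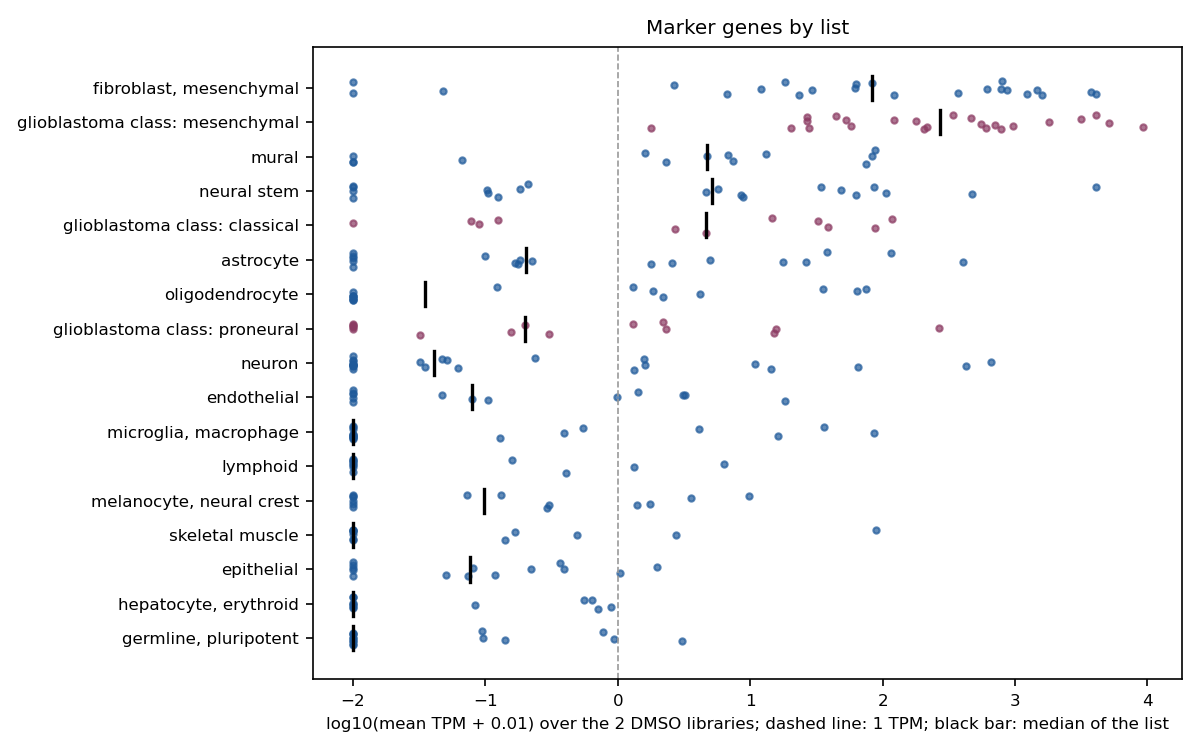
Mean TPM of each marker gene on a log10 axis with 0.01 added, by list, with a black bar at the median of the list and a dashed line at 1 TPM. The fibroblast and mesenchymal markers and the mesenchymal glioblastoma class lie to the right, and the epithelial, hepatocyte and germline lists lie almost wholly to the left of the line.

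Of the glioblastoma classes the mesenchymal stood highest. Of 24 genes of the mesenchymal class 23 reached 1 CPM, with a median of 277 TPM, and the exception was CHI3L1, a secreted glycoprotein, with 8 and 17 counts. TGFBI, VIM, the galectin LGALS1 and the protease inhibitor TIMP1 were among its highest genes. The classical class had 7 of 11 (63.6%) at 1 CPM and a median of 4.62 TPM, against 57% and 5.63 over all protein-coding genes. EGFR, its defining receptor, had 2995 and 3263 counts. The proneural class had 5 of 15 at 1 CPM and a median of 0.19 TPM, with STMN1, a microtubule regulator, as its highest gene at 3871 and 3219 counts. Its factors SOX2 and SOX11 and the phosphatase PTPRZ1 had none, and its receptor PDGFRA had 52 and 38 counts.

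Of 34 receptor tyrosine kinases 19 (55.9%) reached 1 CPM, near the 57% of all protein-coding genes. AXL, the receptor of GAS6, stood highest per length with 488 and 391 TPM, followed by MET, the receptor of HGF, with 233 and 199 TPM, and EGFR with 108 and 129 TPM. PDGFRB, the collagen receptor DDR2 and FGFR1 came next, at mean levels of 82.8, 75.9 and 55.7 TPM. FGFR2, FGFR3, NTRK2, RET and FLT1 had 0 counts. Among 31 ligands 21 (67.7%) reached 1 CPM, and VEGFA held most of their reads, with 26618 and 35493 counts. EREG and TGFA, ligands of EGFR, had 4363 and 3771 and 873 and 829 counts. HGF was present with 558 and 528 counts beside its receptor MET, and GAS6 with 16 and 29 beside AXL. PDGFB, PDGFD and IGF2 had none.

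Of 28 genes of PI3K and RAS signalling 27 reached 1 CPM, the exception being the leukocyte isoform PIK3CG with 2 and 1 counts. NF1, the RAS inhibitor neurofibromin, had 1474 and 1700 counts. In the list of cell cycle control 16 of 21 reached 1 CPM. CCND1, the cyclin D1 partner of CDK4 and CDK6, was highest with 12143 and 9141 counts, while CCND2 had 1 and 2. CDKN2A, CDKN2B, CDKN2C and CDKN1C, inhibitors of cyclin-dependent kinases, had 0 counts in both libraries. The inhibitors CDKN1A, CDKN1B and CDKN2D stood at mean levels of 175, 68.8 and 114 TPM. RB1, the retinoblastoma protein, had 746 and 617 counts.

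Telomerase and repair genes were measured at very different depths. TERT, the catalytic subunit, had 21 and 25 counts and its template RNA TERC 55 and 52. ATRX and DAXX, whose loss goes with the alternative lengthening of telomeres, had 1583 and 1772 and 333 and 294 counts. MGMT, the enzyme that removes the alkyl group left by temozolomide, had 0 counts in both libraries, and it was the single gene of the 17 of that repair list below 1 CPM. XRCC5, XRCC6 and PRKDC, which form the DNA-dependent kinase that binds broken ends, stood at mean levels of 458, 400 and 342 TPM. Of 18 histone deacetylases and sirtuins 16 reached 1 CPM, with HDAC1 at a mean of 75.2 TPM, HDAC3 at 68.6 and HDAC2 at 35.1, and HDAC11 at 4 and 0 counts. Of 23 genes for surface antigens and immune ligands 21 reached 1 CPM, among them B2M and the kinase receptor EPHA2. IL13RA2, a receptor often raised in glioblastoma, had 14 and 8 counts and L1CAM 0 and 7.

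Transcription factors of connective tissue and of the nervous system are given beside the 57% of all protein-coding genes at 1 CPM, from which the share of the former, 53.8%, lay little apart and that of the latter was 23.7%. Of 39 mesenchymal factors 21 reached 1 CPM, led by FOXL1 with 1519 and 1308 counts, SNAI2 with 846 and 768, TBX2 with 943 and 1022, ZEB2 with 3632 and 3893 and PRRX1 with 1181 and 1012. Of 38 neural factors 9 reached 1 CPM, among them ZIC2, DLX1, DLX2, ZIC1, PAX6, PAX3, SOX9 and PAX8, and 20 had 0 counts. PAX6 was the highest by reads, with 316 and 424 counts. Of 39 HOX genes 7 reached 1 CPM, led by HOXB2 with 134 and 145 counts and HOXD8 with 132 and 86, and 14 had 0 counts. All HOX genes stood below 30 TPM on average.

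Genes of cell division and low oxygen were abundant, and so were some inflammatory genes. All 30 S phase genes and all 30 genes of G2 and mitosis reached 1 CPM, with medians of 106 and 222 TPM. MKI67 had 7459 and 8004 counts. Of 27 hypoxia genes 26 reached 1 CPM, with a median of 303 TPM. CA9, the carbonic anhydrase used as a mark of hypoxia, had 3820 and 3199 counts and STC1 17073 and 13177. In the inflammatory list 20 of 24 reached 1 CPM, with a median of 28.7 TPM. The secreted factors CXCL8, LIF, CSF3, IL11 and IL1B each stood above 350 TPM on average. CXCL8 had 5144 and 4899 counts. TNF had 2 and 1 counts. The interferon-stimulated list had 18 of 27 at 1 CPM and a median of 3.93 TPM, with CXCL10 at 0.

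Silent stretches of the genome were sought as runs of at least 4 neighbouring protein-coding genes with no more than 3 counts each over both libraries. Of 19858 genes scanned 6838 were that low, and 369 runs held 2698 of them. Such runs are common in families that few tissues express, as in the 47 genes from OR2B11 to LYPD8 on chromosome 1, most of them olfactory receptors. Runs were therefore ordered by how many of their genes have a CpG-rich promoter, taken as a window of 300 bases around the start in RefSeq (250 before, 50 after, build GRCh38.p14) with over 55% G and C and a ratio of observed to expected CpG over 0.6. CpG-rich promoters belong mostly to genes that many cell types use. At least 1 such promoter was found in 222 runs and at least 5 in 13.

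The share of genes with a CpG-rich promoter climbed with the level. A window was at hand for 15335 of 19932 protein-coding genes, and 65.8% of these genes had a CpG-rich one. A gene with several windows was placed in the CpG-rich class if any of them met the limits, and the letters TATAAA below were counted likewise. Of all 35116 windows 44% were CpG-rich. How far the number of windows per gene bears on these shares of genes was not tested. The share was 31.7% of the 3638 genes with 0 counts and 47.2% of those with a count but under 1 CPM. It was 72.1% between 1 and 10 CPM, 86.5% between 10 and 100, 88.3% between 100 and 1000, and 94.4% of the 54 genes at 1000 CPM or more. The letters TATAAA, searched on the strand of the gene in the 50 bases before the start, were found in 9.4% of the genes at 0 counts, 1.94% of those between 10 and 100 CPM and 13% (7 of 54) of the highest class, against 4.53% of all these genes.

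The run with the most CpG-rich promoters lay on chromosome 19, at 36334453 to 37719790 in GENCODE v29 on GRCh38, from ZFP14 to ZNF607. It held 29 genes, nearly all zinc finger factors, of which 26 had 0 counts and 21 a CpG-rich promoter, and they had 4 counts in all. The gene before it, ZNF146, had 1757 and 1297 counts, and the gene after it, ZNF573, 6 and 1. Of the 28 other annotated genes within the run 27 had 0 counts. Another run of such genes, from ZNF534 to ZNF600 on the same chromosome, had 7 genes and 1 count in all.

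The run on chromosome 9, at 20341665 to 24545946 from MLLT3 to IZUMO3, was empty throughout. Its 27 protein-coding genes had 0 counts in both libraries, and so had the 50 other annotated genes inside it, among them MIR31HG and CDKN2B-AS1. It spans 4204 kb and holds the type I interferon cluster, MTAP of the methionine salvage pathway, and the cell cycle inhibitors CDKN2A and CDKN2B. Interferon genes are silent in most resting cells. A CpG-rich promoter was found for 7 of the 27 genes, among them KLHL9, an adaptor of a ubiquitin ligase. The share was 31.7% over all protein-coding genes with a window and 0 counts. That share covers only genes with a window, whereas the 7 are given out of all 27 genes. No excess can therefore be read from this number. The genes on either side were transcribed, with 273 and 558 counts for SLC24A2 and 200 and 145 for TUSC1. Loss of DNA and silencing cannot be told apart from these RNA counts.

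A smaller run on chromosome 1, at 48532855 to 51148086, held AGBL4, BEND5, ELAVL4, DMRTA2, FAF1, CDKN2C and C1orf185. It had 2 counts in all, both of DMRTA2 in replicate 1, and 6 of the 7 genes had a CpG-rich promoter. FAF1 is a widely used adaptor of protein degradation, and CDKN2C encodes the inhibitor p18 of CDK4 and CDK6. The 23 other annotated genes within it had 0 counts. SPATA6 before it had 186 and 204 counts and RNF11 after it 1094 and 761. Other runs with many CpG-rich promoters lay on chromosome 3 from LTF to PTH1R (15 genes, 5 counts in all), on chromosome 13 from CNMD to PRR20E (8 genes, 0 counts) and on chromosome 7 from HOXA6 to EVX1 (8 genes, 4 counts).

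**Figure D3:**
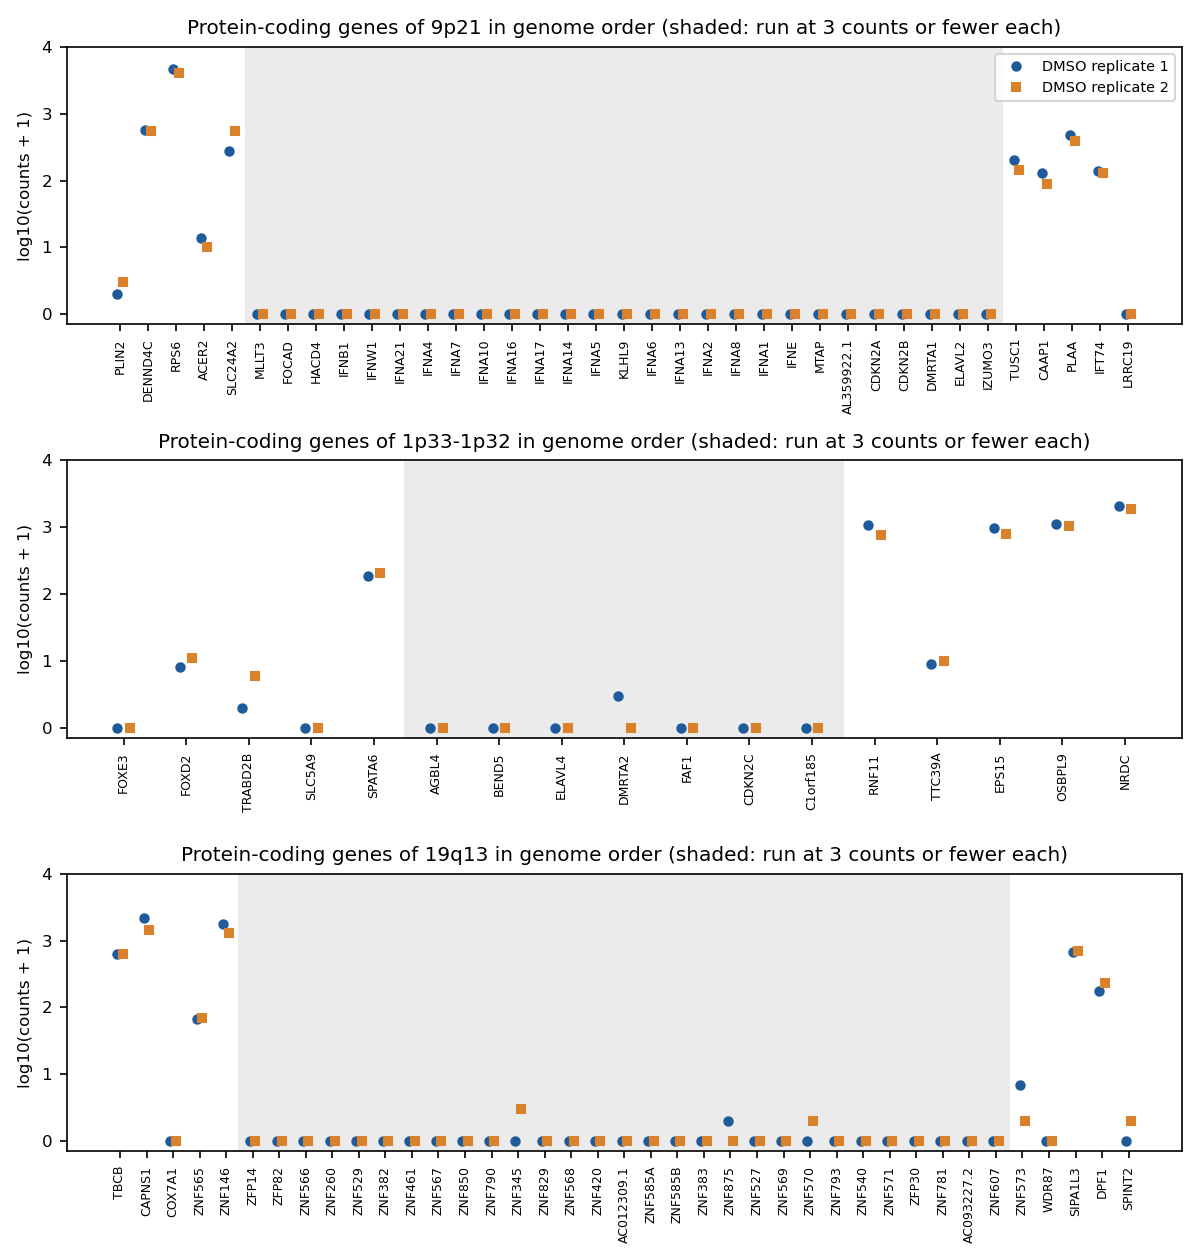
Counts in DMSO replicate 1 (circles) and replicate 2 (squares) as log10(counts + 1) for the protein-coding genes of the 3 runs in genome order, with 5 neighbours on each side. Every gene in the shaded stretch of 9p21 lies at 0, whereas SLC24A2 and TUSC1 beside it had 558 and 200 counts in their higher library.

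The promoters of 2 silent genes inside these runs and of the transcribed genes just outside them are shown because all are of the CpG-rich class, whether transcribed or not, with ZNF569 added from the run on chromosome 19. Each line gives the 150 bases before the start in RefSeq, build GRCh38.p14, 5′ to 3′, with CpG in capitals.
TUSC1, chr9:25678445-25678594, minus strand: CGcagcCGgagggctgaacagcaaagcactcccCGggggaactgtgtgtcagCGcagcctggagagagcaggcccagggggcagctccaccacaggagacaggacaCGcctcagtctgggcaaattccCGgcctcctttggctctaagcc
KLHL9, chr9:21335405-21335554, minus strand: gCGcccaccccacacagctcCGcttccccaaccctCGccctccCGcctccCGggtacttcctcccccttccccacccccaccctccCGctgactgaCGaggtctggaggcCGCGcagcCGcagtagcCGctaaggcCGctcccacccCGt
RNF11, chr1:51236123-51236272, plus strand: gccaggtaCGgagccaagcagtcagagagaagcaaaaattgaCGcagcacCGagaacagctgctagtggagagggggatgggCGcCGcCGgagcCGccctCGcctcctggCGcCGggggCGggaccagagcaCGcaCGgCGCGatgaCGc
FAF1, chr1:50960268-50960417, minus strand: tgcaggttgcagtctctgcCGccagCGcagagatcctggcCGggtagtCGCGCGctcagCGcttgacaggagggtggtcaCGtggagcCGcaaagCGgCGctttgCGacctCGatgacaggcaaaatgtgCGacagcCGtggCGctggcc
ZNF569, chr19:37467445-37467594, minus strand: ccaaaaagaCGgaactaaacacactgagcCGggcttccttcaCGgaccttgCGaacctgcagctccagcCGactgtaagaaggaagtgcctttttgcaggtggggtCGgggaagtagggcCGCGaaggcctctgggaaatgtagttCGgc
The stretch printed for the silent KLHL9 held 13 CpG and that of the transcribed TUSC1 6, while the whole windows held 19 and 22. FAF1, with 0 counts, and RNF11, with 1094 and 761, had 16 CpG each in the printed stretch. ZNF569, with 0 counts, had 9.

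Some genes at 0 counts are needed by every cell. EEF1G, a subunit of a translation elongation factor, had 0 counts, and 99.9% of its exonic bases lie in exons of another gene on the same strand in GENCODE v29. Of the 5187 protein-coding genes at 0 counts, 302 (5.82%) had at least 90% of their exonic bases shared in this way, against 19 (0.167%) of those at 1 CPM or more. The splicing factor U2AF1 had 0 and 3 counts with no such overlap and is known to have a near-identical copy in this build. No exonic base of FAF1, FOCAD, KLHL9, CDKN2A, CDKN2B, CDKN2C or MGMT was shared, and 7.83% of those of MTAP were. MYH10, a nonmuscle myosin, also had 0 counts without overlap, beside 18906 and 16968 counts for its relative MYH9.

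The 2 libraries were then set against each other. Ratios of replicate 2 to replicate 1 were computed with TMM factors of 0.957 and 1.04 for the 9418 genes at a mean of at least 10 CPM, with exact 95% counting intervals. Across these genes log2 CPM correlated with a Pearson r of 0.963 and a Spearman rho of 0.96, a description over genes that share both libraries. The common dispersion was 0.0353, a biological coefficient of variation of 0.188. Past 1.5-fold in either direction were 1195 genes (12.7%), of which 668 (7.09%) were higher in replicate 2 and 527 (5.6%) higher in replicate 1. Scaling by library size alone turned this split to 950 and 205, and moved the median log2 ratio of all tested genes from -0.13 to -0.0047. The counting interval held a ratio of 1 for 3497 of the 9418 genes. With 1 group of 2 libraries no test was made. The limit passed between ANKS3 and PPP1R12B in one direction, at log2 ratios of 0.59 and 0.58, and between SRR and WDR82 in the other, at -0.59 and -0.58.

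Nuclear noncoding RNAs stood apart toward replicate 2. MALAT1 had 53390 counts in replicate 1 and 126978 in replicate 2, and NEAT1 35010 and 132550. Together they held 0.911% and 2.81% of all counts. The log2 ratio was 1.20 (counting interval 1.18 to 1.21) for MALAT1 and 1.87 (1.85 to 1.89) for NEAT1. Of 14 tested members of the list of long noncoding RNAs, 9 were higher in replicate 2 and none in replicate 1, with a median log2 ratio of 0.83 against -0.13 over all tested genes. KCNQ1OT1, an imprinted antisense RNA, had 795 and 2128 counts, PVT1 398 and 878, and FTX, of the X inactivation centre, 634 and 1279. NORAD, a mostly cytoplasmic RNA, went the other way within the limit, with 7087 and 5511 counts.

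By class of gene, lincRNAs held 1.31% and 3.38% of the counts of replicates 1 and 2 and protein-coding genes 97.3% and 94.7%. Of 82 tested lincRNAs 35 were higher in replicate 2 and 3 in replicate 1, against 7.09% and 5.6% of all tested genes. Of 57 tested antisense RNAs the numbers were 23 and 2, of 50 transcribed unprocessed pseudogenes 30 and 0, and of 14 sense-intronic RNAs 9 and 1. Antisense values are uncertain, since no source used here states whether counting was strand-specific. Replicate 2 also held 3715 genes with no count in replicate 1, against 1882 the other way round, none with more than 19 counts.

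Replication-dependent histone genes stood apart in the opposite direction. They lack introns, and their messenger RNA ends in a stem-loop in place of a poly(A) tail. Of 40 tested members 37 were higher in replicate 1 and none in replicate 2, with a median log2 ratio of -0.84. The linker histone H1-2 had 3552 and 2107 counts and H1-5 3714 and 1929. H3C12 had 826 and 292 counts, a log2 ratio of -1.55 (counting interval -1.75 to -1.36). Of its exonic bases 44.6% lie in exons of another gene on the same strand. H3C13, with 0% so shared, had 590 and 236 counts, a log2 ratio of -1.37. Together the 47 histone genes held 0.381% and 0.228% of the counts. The S phase genes as a list did not share this difference, with a median log2 ratio of -0.08, and none of its 30 members was past the limit toward replicate 1. RRM2 and PCNA, both needed for DNA synthesis, had 9673 and 7265 and 1483 and 1239 counts.

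Short RNAs went both ways. Of 6 tested genes annotated as snoRNA 2 were higher in replicate 2, SNORD12B with 93 and 180 counts and SNORD12C with 73 and 143, and 1 in replicate 1, SCARNA10. None of 3 tested scaRNA genes was past the limit. These genes are too few to set against the 7.09% toward replicate 2 and 5.6% toward replicate 1 of all tested genes. Genes annotated as miRNA, none of them abundant enough for a ratio, together held 80.8 and 181 CPM, and snRNA genes 132 and 182. SCARNA10, a small Cajal body RNA, had 316 and 71 counts and the largest ratio toward replicate 1. Of its exonic bases 75.2% lie in exons of another gene on the same strand. The mitochondrial ribosomal RNAs MT-RNR1 and MT-RNR2 had 1539 and 612 and 11200 and 5645 counts, while the mitochondrial messenger MT-ND4 had 3425 and 3514. MT-ND3 was the other mitochondrial gene past the limit, with 902 and 586 counts. The mitochondrial list as a whole had a median log2 ratio of -0.26, with 11 of 15 genes below 0. RN7SL1, RN7SL2 and RMRP were each past the limit toward replicate 1, the 3 tested members of their list of small RNAs.

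Among messengers the ratio moved with annotated features of the gene. Exons were counted as distinct annotated exon intervals over all transcripts of a gene, so the number also rises with the transcripts annotated. Protein-coding genes were split into 5 groups by this number. In the 1866 genes with the fewest, 1 to 14, 15% were higher in replicate 1 and 1.61% in replicate 2, and the median log2 ratio was -0.31. In the 1751 genes with the most, 47 to 239, the shares were 0.514% and 12.6% and the median 0.07. The median also rose from -0.28 to 0.0077 from the shortest to the longest of 5 groups by exonic length, and from -0.18 to 0.00063 from the lowest to the highest of 5 groups by G and C content, where 1.92% and 14.5% were higher in replicate 2. These features are related to each other, and their parts were not tested apart. The median went from -0.06 in the group of lowest mean CPM to -0.23 in the highest.

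**Figure D4:**
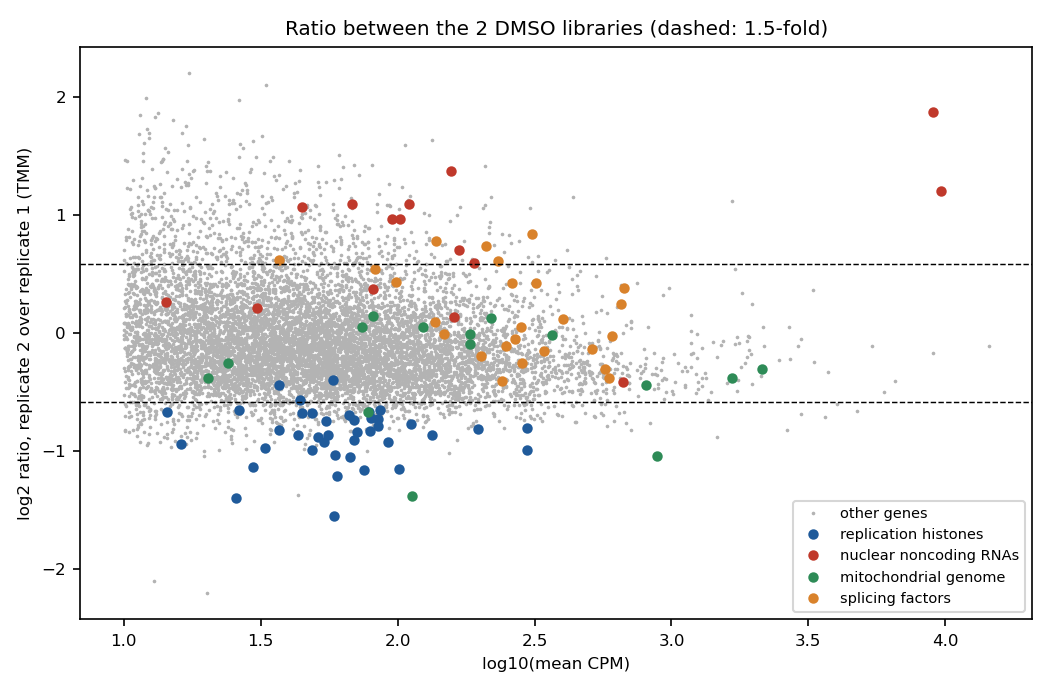
Log2 ratio of DMSO replicate 2 to replicate 1 with TMM scaling against log10 mean CPM for the genes at 10 CPM or more, with dashed lines at 1.5-fold. Replication histones lie below the centre, 37 of 40 past the lower line, and MALAT1 and NEAT1 lie at the upper right.

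Lists of abundant messengers leaned toward replicate 1, past the median log2 ratio of -0.13 over all tested genes. Glycolysis had a median log2 ratio of -0.37, with ENO1, LDHA and LDHB past the limit toward replicate 1. LDHA had 42396 and 26757 counts. Ribosomal protein genes had a median of -0.32 and chaperones of the heat shock list -0.45. Past the limit were 1 of 65 and 1 of 14, against 5.6% of all tested genes toward replicate 1, so these 2 lists leaned in their medians only. VIM, ACTB and ACTG1, with 54653 and 35786, 34358 and 22041, and 31858 and 18626 counts, were past the limit toward replicate 1. The ferritin genes FTH1 and FTL were too, at 17906 and 10066 and 7280 and 4484 counts.

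Some splicing factors and collagens were among the messengers higher in replicate 2, as were 7.09% of all tested genes. Of 25 tested splicing factors 5 were past the limit toward replicate 2 and none toward replicate 1: SRSF11, LUC7L3, PNISR, SRSF5 and CLK4. SRSF11 had 2038 and 3768 counts and LUC7L3 936 and 1662. Of 14 tested collagens 3 were past the limit toward replicate 2, with 9626 and 21619 counts for COL7A1, 625 and 1450 for COL27A1 and 1250 and 1987 for COL16A1, whereas COL6A1 had 16861 and 16478. TAGLN and TPM2, genes of contractile filaments, had 45 and 168 and 146 and 397 counts, while ACTA2 of the same program had 52 and 41. The largest ratio toward replicate 2 among the tested named genes was that of RTEL1-TNFRSF6B, an annotated readthrough of neighbouring genes, with 56 and 267 counts, followed by ATP6V1FNB with 113 and 502. MUC1 had 7 and 31 counts, below the level at which ratios were called.

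**Figure D5:**
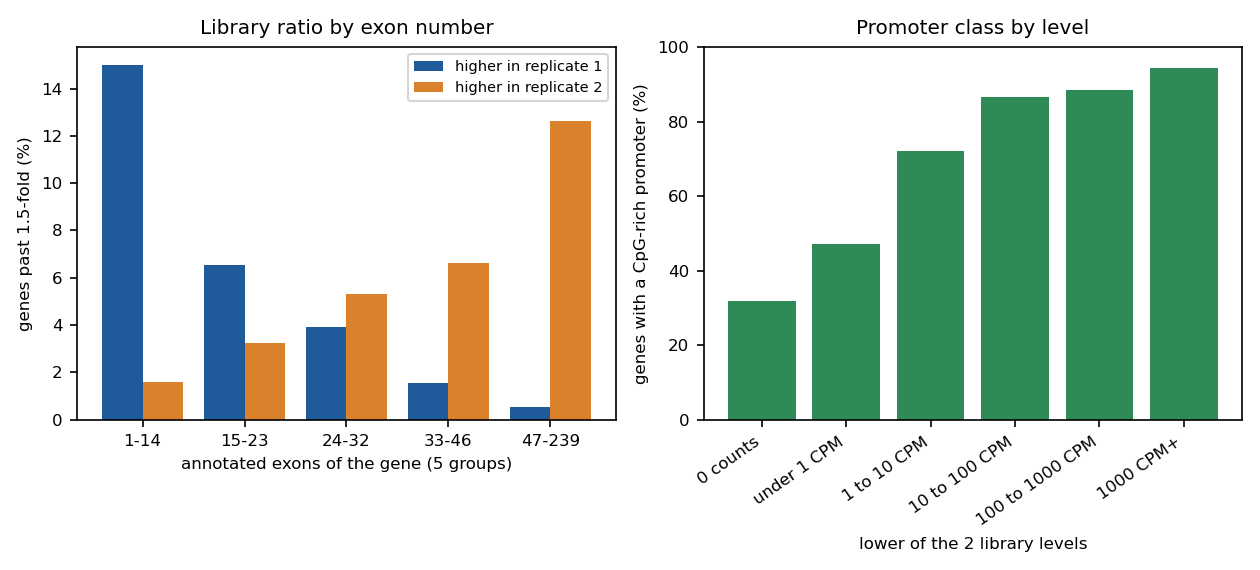
Left, percent of tested protein-coding genes past 1.5-fold in each direction in 5 groups by number of distinct annotated exon intervals over all transcripts. Right, percent of genes with a CpG-rich promoter in any window by the lower of the 2 library levels. Genes higher in replicate 1 fall from 15% to 0.514% and those higher in replicate 2 climb from 1.61% to 12.6% across these groups.

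The lineage markers past the limit are read against the 12.7% of all tested genes, and their number was near that share. Of the 70 distinct lineage markers at 1 CPM in both, 47 were abundant enough for a ratio, and 3 of these were past the limit toward replicate 2 and 2 toward replicate 1. TAGLN, GAD1 and SNAP25 were the former and VIM and UGT8 the latter. Of 141 tested glioblastoma genes 1 was past the limit toward replicate 2, the histone methyltransferase KMT2D with 1179 and 2100 counts, and 5 were toward replicate 1: VIM, TIMP1, CEBPB, NRAS and CCND3. The genes of the silent runs on chromosomes 9, 1 and 19 gave 0, 2 and 4 counts in all over both libraries.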

How the data were processed

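Total RNA of U87 cells was depleted of ribosomal RNA and sequenced as stranded libraries, per the labels' protocols. The submitters' processing notes list cutadapt 1.16, STAR 2.7.0 and featureCounts 1.6.3 with the build GRCh38. The table deposited by the authors holds whole-number counts for each gene, with no scaling recorded. No source used here states the annotation release or the strand setting.

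Only the 2 DMSO columns of the 8 were used. CPM were taken over library size. TPM used exonic lengths joined over all transcripts of a gene in GENCODE release 29, which held 58611 of the 58884 identifiers. The other 273 held 0.0113% of the counts. TMM factors and the dispersion came from edgeR 4.0.16 in R 4.3.3, and other steps from Python 3.11.15. Ratios were called past 1.5-fold with Clopper-Pearson 95% intervals, and no test was made. On simulated counts with 9402 genes at 10 CPM or more, all 95 genes changed 2-fold and all 97 changed 4-fold were called, and 5 of 9210 unchanged genes. Those counts held counting error only.

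The cells and the 62 gene lists (1400 of 1404 entries matched) were chosen with earlier results of these data known. Named were the 20 highest genes by each unit, list leaders, list members at 3 counts or fewer, any glioblastoma, lineage or locus gene, genes at the limits, genes of runs with a CpG-rich promoter and the 15 largest ratios in each direction. Genes described with their list beyond these, such as COL1A1, MKI67 or RRM2, were chosen after their values were seen. A few genes are not reported here. Alternatives were set for ranking, levels, runs and ratios.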

Additional observations from a re-analysis of the deposited data

How the results depend on the processing

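Of 204 values recomputed under another setting, 171 kept within 1.5 times the reported value, or within 1 SD of the list for a median ratio. The median log2 ratio of all tested genes turned from -0.13 to 0.0457 with no filter on low counts, and calls higher in replicate 2 went from 55.9% of all calls to 42.3% at a mean of 50 CPM or more. Ranking by TPM kept 10 of the 20 highest genes, while counting protein-coding genes only kept 18, and leaving out each library in turn kept 19 to 20. The number of protein-coding genes expressed kept within that range under all 7 alternatives. Lists with no gene at 1 CPM had up to 3 under other limits or with 1 library left out, and the pigment cell list went from 2 to 4 at 0.5 CPM or 1 TPM.

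Silent runs fell from 369 with 2698 genes to 219 with 1676 genes when every gene had to be at 0 counts, which left the run of KLHL9 at 27 genes and split that of FAF1 below 4 neighbours. The run of ZNF569 kept stretches of 10, 7 and 7 genes, none of them with ZNF569 itself. Runs of 3 genes or more numbered 649. Genes past 1.5-fold numbered 2393 at a mean of 2 CPM or more (1598 higher in replicate 2 and 795 in replicate 1), 475 at 50 CPM (201 and 274), and 8891 with no filter and a prior count of 2 (5442 and 3449). They numbered 226 at 2-fold (209 and 17) and 469 with the whole counting interval past the limit (339 and 130). Calls higher in replicate 1 fell to 205 by library size only and to 264 for protein-coding genes only, where 712 were higher in replicate 2. RLE factors gave 755 and 387.

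A ratio between 2 libraries has no value with 1 left out. No paired analysis was possible because the 2 libraries are replicates of 1 group. At this depth a gene below 3 counts, 0.309 and 0.325 CPM, cannot be told from an absent one.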

Other observations

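Some genes of oncofetal growth control were also present. HMGA1 and HMGA2, chromatin proteins of embryonic tissue, had 1813 and 1272 and 2333 and 3806 counts, and IGF2BP2 and IGF2BP3, which bind messenger RNA, 666 and 740 and 843 and 832. PEG10, a gene expressed from the paternal copy, had 2610 and 1815 counts. The imprinted genes IGF2, H19, DLK1, PEG3 and RTL1 had 0 counts in both libraries. Of 16 members of this list 7 (43.8%) reached 1 CPM, below the 57% of all protein-coding genes, and the median was 0.44 TPM.

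The mechanosensitive coactivators YAP1 and WWTR1 had 1332 and 1013 and 1648 and 1323 counts. Of 17 genes of this pathway 16 reached 1 CPM, led by F3, the tissue factor of coagulation, with 11533 and 9781 counts, while ANKRD1, often used as its readout, had 1 and 2. MT2A, a metallothionein, had 6059 and 3851 counts, whereas MT1A, MT1B and MT1H had none. The iron exporter SLC40A1 and the malic enzyme ME1 had 0 counts, beside 11359 and 9381 for the transferrin receptor TFRC.

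Over the autosomes and chromosome X, the share of protein-coding genes at 1 CPM in both libraries lay between 45.6% on chromosome X and 63.3% on chromosome 2.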
